A study of Mus musculus with 16 samples.

Results

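Pou5f1, Sox2, Nanog, Sall4, Utf1, Tdgf1, Fgf4, Lin28a and Trim71 are 9 genes commonly read as general markers of the pluripotent state of mouse embryonic stem cells. They were taken by name from a table of 21977 genes, and all 9 were found and passed the filter on low values in both assays. Ribosome-protected fragments (RPFs, the mRNA stretches covered by ribosomes) and total RNA were sequenced from each of 8 embryonic stem cell cultures, all kept with the cytokine LIF on gelatin. Of these, 2 were wild type (WT, cultures WTex1 and WTex2 of the line RF8), 3 were heterozygous for Nat1 (Nat1+/-, clones A7, B4 and C1) and 3 lacked Nat1 (Nat1-/-, clones B12, B2 and C3). Nat1 is an older name of Eif4g2, also called DAP5 or p97, a relative of the translation initiation scaffold eIF4G. The labels name each targeted culture as a line of its own, called a clone here, whereas both WT cultures carry 1 line name, so the WT spread holds no clonal difference and p-values measure only the spread between these cultures. Values below follow that order of cultures within each genotype and are normalised reads, meaning read counts divided by a scaling factor for each library.

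OCT4 (the product of Pou5f1) and SOX2 bind DNA side by side at a composite element, and with NANOG they maintain one another's transcription and that of many other pluripotency genes. SALL4 and UTF1 act on chromatin in the same cells, FGF4 is a secreted growth factor that primes the cells for differentiation, and TDGF1 (CRIPTO) is the co-receptor of the ligand NODAL. LIN28A and TRIM71 bind RNA, LIN28A being known for blocking maturation of let-7 microRNAs and TRIM71 for repressing target mRNAs.

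Windows around the listed transcription starts, from 250 bases before to 50 bases after, were matched for 8 of the 9 genes (10 windows; RefSeq, GRCm38.p6) and searched on both strands for the POU-type motif ATGCAAA and the SOX-type motif CATTGT. The POU-type motif ATGCAAA was found in windows of Nanog and Sox2, against 4.63% of all 32851 windows, and CATTGT in windows of Lin28a, Nanog and Pou5f1, against 12.6%. CATTGT followed within 0 to 3 bases by ATGCAAA, which overlaps both single motifs, occurred in 3 of the 32851 windows (0.00913%), and 2 of these were the overlapping windows of Nanog's 2 listed starts. Both stretches below are shown because Nanog and Sox2 are targets of the factors encoded by members of the same group. They lie on the plus strand at chr6:122707364-122707477 and chr3:34649846-34649952, run 5′ to 3′ and have the match in capitals. In the Nanog stretch the capitals read the composite on the opposite strand, and they begin 75 bases upstream of the first listed start and 151 bases upstream of the second. In the Sox2 stretch they mark ATGCAAA, 99 bases upstream of the start. A match describes these letters and is not evidence of binding.
Nanog: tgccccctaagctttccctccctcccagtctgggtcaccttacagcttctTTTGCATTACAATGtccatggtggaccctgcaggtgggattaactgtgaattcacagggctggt
Sox2: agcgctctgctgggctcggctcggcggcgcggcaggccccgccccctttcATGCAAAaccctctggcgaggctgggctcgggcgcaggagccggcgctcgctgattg

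Depth was 17.5 to 23.8 M (mega) reads in RPF and 13.2 to 42.6 M in total RNA, the deep ones being WTex1, WTex2 and B12. Footprints of the targeted gene Eif4g2 ran from 13862 to 17666 for WT, from 7275 to 10261 for Nat1+/- and from 922 to 1114 for Nat1-/-, in the order the labels give, while its total RNA overlapped between Nat1+/- (10674 to 15335) and Nat1-/- (5085 to 12249). The remaining embryonic stem cell markers of the list fixed for that label, Zfp42 and Esrrb, were read in all 8 cultures in both assays.

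**Figure D1:**
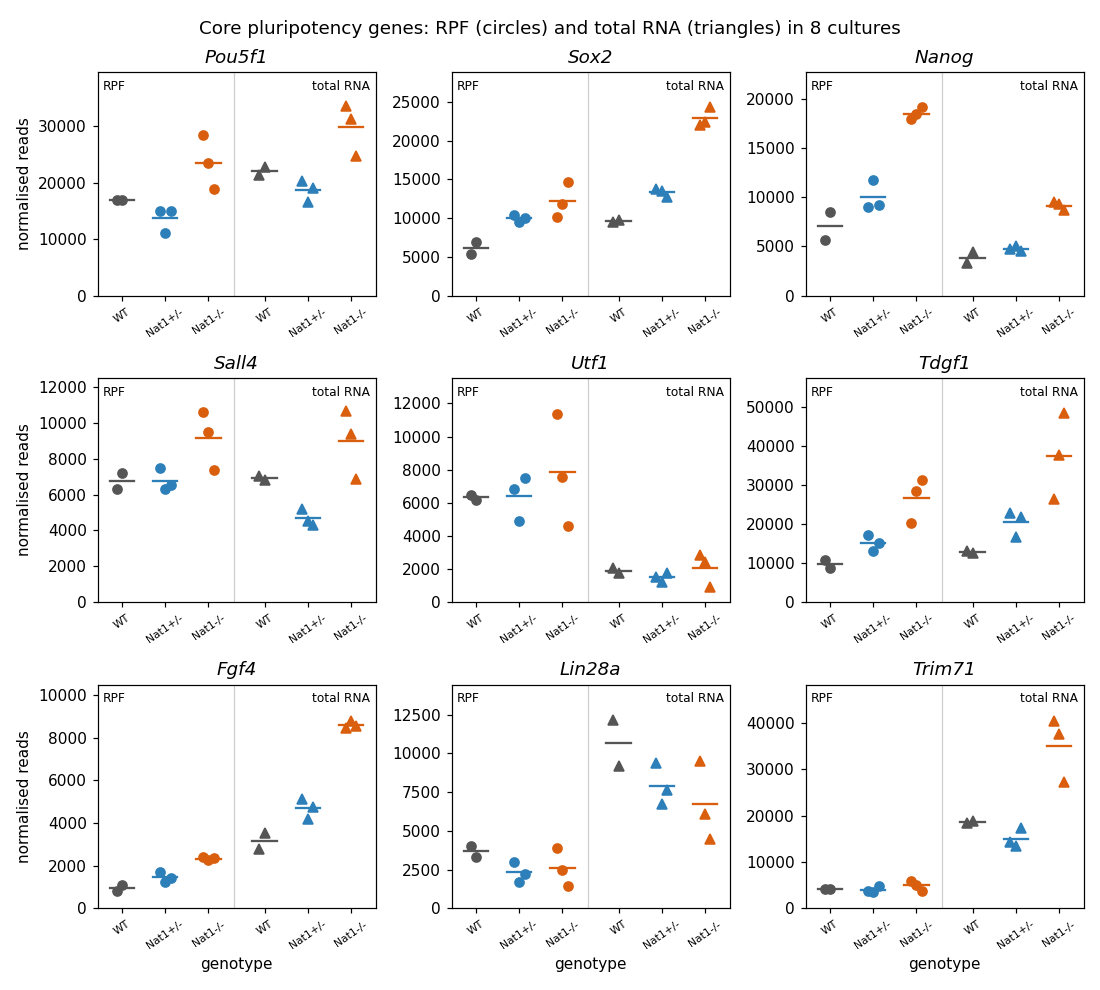
Normalised reads (vertical axis) of the 9 genes by genotype (horizontal axis), RPF as circles on the left and total RNA as triangles on the right of each panel; each symbol is 1 culture and each bar a genotype mean. Pou5f1, Nanog, Tdgf1 and Fgf4 stood higher in all 3 Nat1-/- clones than in the other 5 cultures in both assays, while Utf1 and Lin28a overlapped between Nat1-/- and Nat1+/-.

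The comparison of Nat1-/- with Nat1+/- sets clones without Nat1 against clones with 1 allele. In total RNA 7 of the 9 genes rose in Nat1-/-, namely Trim71, Nanog, Sall4, Fgf4, Tdgf1, Sox2 and Pou5f1, and none fell. Across all genes tested 19.8% rose and 20.2% fell. In RPF 4 of the 9 rose, namely Nanog, Tdgf1, Pou5f1 and Fgf4, and none fell, where 17.6% of all genes rose and 18.6% fell. Among the 11604 genes averaging at least 50 in total RNA, 2571 rose and 2065 fell. Among the 10956 such genes in RPF, 2124 rose and 1729 fell. The 9 genes were chosen with earlier results of these data known, so setting them beside all genes is a description only. The number of genes called rests partly on clone B2 (Nat1-/- replicate 2). Without it 1187 genes were higher and 1616 lower in RPF, against 2303 and 2434 with it, and 1665 and 1914 in total RNA, against 2730 and 2789. The same 7 and 4 genes were those whose 3 Nat1-/- values all lay above the 3 Nat1+/- values, a pattern that 25.6% of all genes met in total RNA and 24.6% in RPF. The opposite order was met by 0 of the 9, against 24.6% of all genes in total RNA and 23.5% in RPF. The median log2 fold change of the 9 was 0.84 in total RNA and 0.43 in RPF, beside 0.01 and 0.02 over all genes. These are bulk cultures, so a higher share of cells of one type and more RNA per cell cannot be told apart.

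Nanog, the homeodomain factor that stabilises the undifferentiated state, had RPF values of 5624 and 8527 for WT, 9030, 11738 and 9229 for Nat1+/- and 17920, 18413 and 19139 for Nat1-/-. Its total RNA was 3258 and 4416 for WT, 4709, 5051 and 4527 for Nat1+/- and 9502, 9260 and 8650 for Nat1-/-. Every Nat1-/- clone lay above every other culture in both assays, and the 3 clones were within 1.07-fold of each other in RPF and 1.1-fold in total RNA. Nat1-/- averaged 18491 ± 614 footprint reads (SD, n = 3) against 9999 ± 1509 in Nat1+/- (SD, n = 3), a log2 fold change of 0.90 ± 0.18 (SE, adjusted p = 0.0044). Total RNA rose by 0.94 ± 0.13 (log2, SE, adjusted p = 6.5e-04). Nanog thus changed by 1.86-fold in footprints and 1.92-fold in RNA, and its RPF to total RNA ratio was 1.89 to 2.21 in Nat1-/- and 1.92 to 2.32 in Nat1+/-.

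Pou5f1, which encodes OCT4, had RPF values of 17038 and 16894 for WT, 14984, 11136 and 14961 for Nat1+/- and 28526, 23431 and 18852 for Nat1-/-. In total RNA it had 21346 and 22764 for WT, 20294, 16628 and 19118 for Nat1+/- and 33682, 31391 and 24797 for Nat1-/-. The 3 genotypes did not overlap in either assay, and Nat1+/- was the lowest. From Nat1+/- to Nat1-/-, Pou5f1 rose by 0.78 ± 0.19 in RPF (log2, SE, adjusted p = 0.0104) and by 0.67 ± 0.15 in total RNA (adjusted p = 0.0056). Clone B12 was highest and C3 lowest within Nat1-/-, and C3 was 1.51-fold below B12 in RPF.

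Sox2, the partner of OCT4, had RPF values of 5338 and 6926 for WT, 10373, 9518 and 10051 for Nat1+/- and 10186, 11776 and 14639 for Nat1-/-. Its total RNA was 9519 and 9697 for WT, 13753, 13454 and 12761 for Nat1+/- and 21977, 22376 and 24369 for Nat1-/-. The footprints of B12 lay within the Nat1+/- range, while all 3 Nat1-/- clones stood clear of it in RNA. Sox2 RNA rose by 0.78 ± 0.11 (log2, SE, adjusted p = 6.3e-04), or 1.72-fold, from Nat1+/- to Nat1-/-. The footprint difference was 0.27 ± 0.17 (log2, SE, adjusted p = 0.221), with a 95% interval from -0.09 to 0.64.

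Sall4, a zinc finger factor that associates with OCT4 and NANOG, had total RNA of 7013 and 6811 for WT, 5168, 4542 and 4313 for Nat1+/- and 10650, 9402 and 6851 for Nat1-/-. Its footprints were 6283 and 7182 for WT, 7498, 6283 and 6514 for Nat1+/- and 10624, 9500 and 7375 for Nat1-/-. Nat1+/- was the lowest genotype in RNA, but in footprints it overlapped WT and also the lowest Nat1-/- clone, C3. RNA rose from Nat1+/- to Nat1-/- by 0.92 ± 0.16 (log2, SE, adjusted p = 0.0020) and the footprint difference was 0.43 ± 0.16 (limma adjusted p = 0.0625). DESeq2 called that footprint difference of Sall4, at 0.42 (adjusted p = 0.0415). Without clone C3 (Nat1-/- replicate 3) the footprint difference of Sall4 passed the threshold, at 0.57 (adjusted p = 0.0100).

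Utf1, a chromatin-bound transcription factor of embryonic stem cells, spread widely among the Nat1-/- clones. Its RPF values were 6463 and 6191 for WT, 6824, 4866 and 7513 for Nat1+/- and 11342, 7576 and 4595 for Nat1-/-. Its total RNA was 2041 and 1735 for WT, 1487, 1225 and 1774 for Nat1+/- and 2838, 2385 and 890 for Nat1-/-. B12 was the highest and C3 the lowest of all 8 cultures in both assays, so the Nat1-/- range enclosed the other genotypes. The differences from Nat1+/- were 0.22 ± 0.29 in RPF (log2, SE, adjusted p = 0.576) and 0.30 ± 0.36 in total RNA (adjusted p = 0.534). Without C3 the RNA difference was 0.81 (limma adjusted p = 0.0047). Without B12 it was -0.02 (limma adjusted p = 0.967), and the RPF difference was then -0.09 (limma adjusted p = 0.787).

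Among the signalling genes, Tdgf1 had RPF values of 10677 and 8824 for WT, 17236, 13009 and 15044 for Nat1+/- and 20376, 28457 and 31263 for Nat1-/-. In total RNA it had 12987 and 12511 for WT, 22871, 16785 and 21867 for Nat1+/- and 26459, 37732 and 48462 for Nat1-/-. WT, Nat1+/- and Nat1-/- formed an ascending order with no overlap in either assay, and within Nat1-/- the order of clones was the reverse of that of Pou5f1, with C3 highest. From Nat1+/- to Nat1-/-, Tdgf1 rose by 0.81 ± 0.19 in RPF (log2, SE, adjusted p = 0.0099) and by 0.84 ± 0.21 in total RNA (adjusted p = 0.0107).

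Fgf4 had RPF values of 809 and 1109 for WT, 1681, 1242 and 1442 for Nat1+/- and 2412, 2250 and 2339 for Nat1-/-. Its total RNA was 2791 and 3553 for WT, 5148, 4195 and 4755 for Nat1+/- and 8472, 8812 and 8577 for Nat1-/-. The same ascending order of genotypes held without overlap, and the Nat1-/- clones were within 1.07-fold of each other in RPF and 1.04-fold in RNA. Fgf4 rose from Nat1+/- to Nat1-/- by 0.69 ± 0.16 in RPF (log2, SE, adjusted p = 0.0089) and by 0.88 ± 0.13 in total RNA (adjusted p = 8.2e-04).

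Of the RNA-binding members, Trim71 had the largest RNA difference among the 9. Its total RNA was 18479 and 18801 for WT, 14205, 13359 and 17358 for Nat1+/- and 40523, 37622 and 27233 for Nat1-/-. Its footprints were 4107 and 4124 for WT, 3676, 3482 and 4746 for Nat1+/- and 5919, 5038 and 3789 for Nat1-/-. All 3 Nat1-/- clones stood above the other 5 cultures in RNA, while the footprints of C3 lay inside the Nat1+/- range and below WT. Trim71 RNA rose by 1.22 ± 0.17 from Nat1+/- to Nat1-/- (log2, SE, adjusted p = 5.8e-04), or 2.33-fold, and the footprint difference was 0.30 ± 0.18 (adjusted p = 0.229). Without C3 the footprint difference was 0.47 (adjusted p = 0.0384).

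Lin28a had RPF values of 4037 and 3302 for WT, 2974, 1723 and 2231 for Nat1+/- and 3915, 2447 and 1442 for Nat1-/-. In total RNA it had 12138 and 9195 for WT, 9387, 6721 and 7629 for Nat1+/- and 9531, 6116 and 4489 for Nat1-/-. The Nat1-/- clones ran from above to below the whole Nat1+/- range, B12 being highest and C3 lowest in both assays. The differences between Nat1-/- and Nat1+/- were 0.09 ± 0.32 in RPF (log2, SE, adjusted p = 0.843) and -0.29 ± 0.25 in total RNA (adjusted p = 0.373). Without B12 (Nat1-/- replicate 1) the RNA difference of Lin28a was -0.58 (adjusted p = 0.0376).

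**Figure D2:**
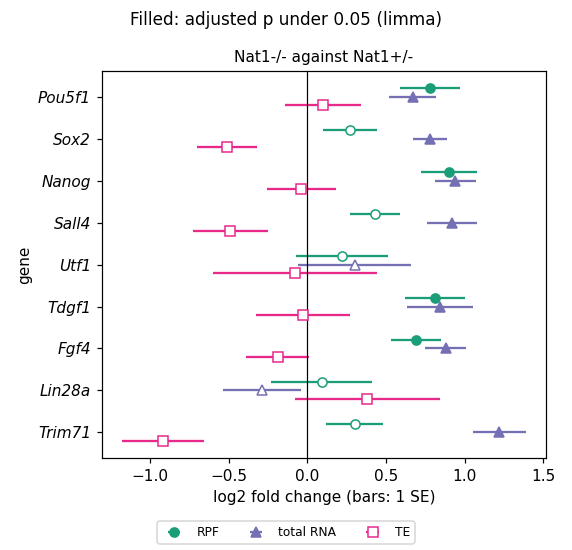
Log2 fold change of Nat1-/- over Nat1+/- (horizontal axis) for each gene (vertical axis) in RPF, total RNA and their ratio (TE), with bars of 1 SE; filled symbols have an adjusted p under 0.05. The 7 filled RNA symbols lie to the right of 0, 4 of them with a filled RPF symbol, and every TE symbol is open.

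The ratio of RPF to total RNA, taken as translational efficiency (TE), asks whether footprints and RNA moved by the same amount. With all 16 libraries in the limma fit, 0 of the 9 genes passed in TE for Nat1-/- against Nat1+/-, where 0.0309% of all genes passed as higher and 0.549% as lower. An unadjusted p under 0.05 was reached by 2 of the 9 and by 1356 of the 12933 genes tested. DESeq2 called 1 of the 9, Trim71 (adjusted p = 0.0273), and edgeR called 0. Over all genes DESeq2 called 398 and edgeR 84. The RPF and total RNA library of a culture deviated together, and in the fit paired by culture 3 of the 9 were lower and 1 was higher, beside 9.26% and 6.49% of all genes.

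Trim71 ratios were 0.222 and 0.219 for WT, 0.259, 0.261 and 0.274 for Nat1+/- and 0.146, 0.134 and 0.139 for Nat1-/-. The 3 genotypes were fully apart, and the Nat1-/- clones were within 1.09-fold of each other although their RNA differed by 1.49-fold. The TE difference between Nat1-/- and Nat1+/- was -0.92 ± 0.26 (log2, SE), with an adjusted p of 0.149, and of 3.0e-04 when paired by culture. Leaving out C3 gave -0.92 with an adjusted p of 0.0372 in the unpaired fit.

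Sox2 ratios were 0.561 and 0.714 for WT, 0.754, 0.708 and 0.788 for Nat1+/- and 0.464, 0.526 and 0.601 for Nat1-/-. Nat1-/- lay below Nat1+/- without overlap, while WT overlapped both. The Sox2 difference between Nat1-/- and Nat1+/- was -0.51 ± 0.19 (log2, SE; adjusted p = 0.321, and 0.0195 when paired by culture). Sall4 ratios were 0.896 and 1.05 for WT, 1.45, 1.38 and 1.51 for Nat1+/- and 0.998, 1.01 and 1.08 for Nat1-/-. Here the Nat1+/- clones stood above both other genotypes. Sall4 differed by -0.49 ± 0.24 between Nat1-/- and Nat1+/- (log2, SE; adjusted p = 0.483, and 0.0064 when paired).

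Lin28a ratios were 0.317, 0.257 and 0.293 in Nat1+/- and 0.411, 0.400 and 0.321 in Nat1-/-, with 0.333 and 0.359 in WT between them and overlapping Nat1-/-. The Lin28a difference from Nat1+/- to Nat1-/- was 0.38 ± 0.46 (log2, SE; adjusted p = 0.888, and 0.0471 when paired). Ratios of Fgf4 were 0.296 to 0.327 in Nat1+/- and 0.255 to 0.285 in Nat1-/-, apart but with a difference of -0.19 ± 0.20 (adjusted p = 0.864, and 0.162 when paired). Counting Fgf4, 4 of the 9 genes had ratios in Nat1-/- wholly below Nat1+/- and 1 wholly above, where 18.4% and 18.5% of all genes did. For Pou5f1, Nanog, Tdgf1 and Utf1 the TE differences were 0.10, -0.04, -0.03 and -0.08, and their ratios overlapped between the genotypes. The widest of these intervals was that of Utf1, from -1.19 to 1.03.

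**Figure D3:**
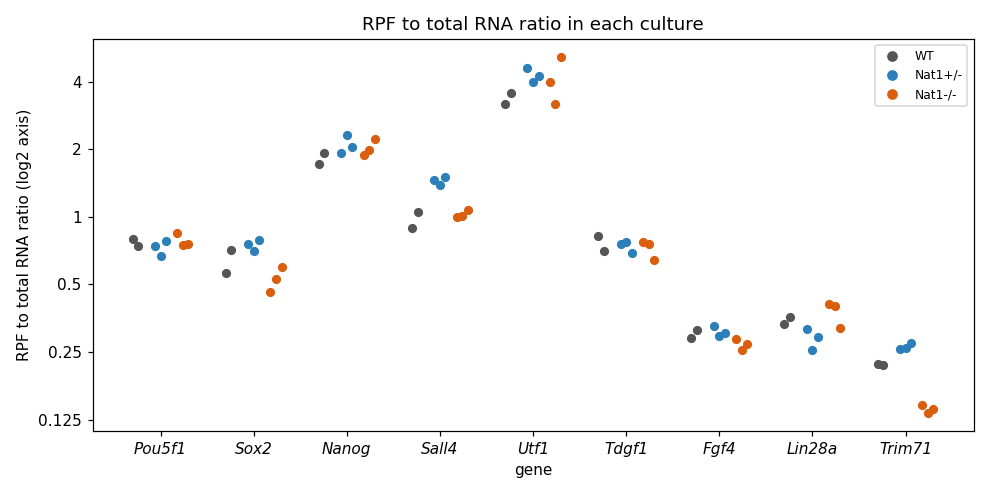
RPF to total RNA ratio (vertical axis, log2 scale) of each gene (horizontal axis) in the 8 cultures, coloured by genotype. Trim71 lies at 0.134 to 0.146 in Nat1-/- and at 0.219 to 0.274 in the other 5 cultures, and Sall4 is highest in the 3 Nat1+/- clones.

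The Nat1-/- clones differed among themselves in a similar order in several members. B12 was highest and C3 lowest in both assays for Pou5f1, Sall4, Utf1, Lin28a and Trim71, whereas C3 was highest in both for Sox2 and Tdgf1. Among the 3 clones the log2 SD of Utf1 was 0.65 in RPF and 0.90 in total RNA, and that of Lin28a was 0.72 and 0.55. The median gene had 0.27 and 0.26. Nanog (0.05 and 0.07) and Fgf4 (0.05 and 0.03) were instead among the least variable genes of these clones. In the Nat1+/- clones Sox2 was the tightest member, with 0.06 in both assays, and B4 was the lowest clone for Pou5f1, Utf1, Tdgf1, Fgf4, Lin28a and Trim71 in both assays. B12 was also the deeply sequenced Nat1-/- library in total RNA, at 42.5 M reads against 16.4 M for B2 and 14.2 M for C3. Its RPF library had 19.2 M reads, against 23.2 M and 17.5 M. Depth goes with the clone here, so the part of each cannot be told apart and was not tested.

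**Figure D4:**
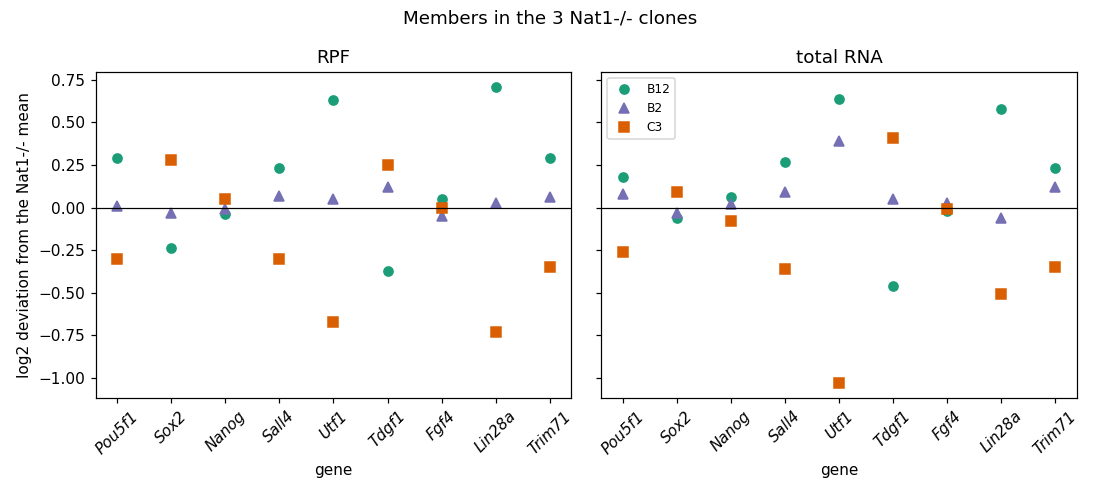
Log2 deviation of each Nat1-/- clone from the Nat1-/- mean (vertical axis) for the 9 genes (horizontal axis), RPF on the left and total RNA on the right. Utf1 and Lin28a spread widest, with B12 above and C3 below the mean, while the 3 symbols of Nanog and Fgf4 lie near 0.

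Against WT, the comparisons share the Nat1-/- or Nat1+/- cultures used above and are given side by side. In RPF 4 of the 9 genes rose in Nat1-/- against WT, where 16.5% of all genes rose and 18.3% fell, and in total RNA 5 rose, where 16.2% rose and 18.9% fell. None of the 9 fell in either assay. Over all genes these were 2167 higher and 2400 lower in RPF and 2231 and 2608 in RNA, against 1558 and 2735 and against 1632 and 3126 with libraries scaled to equal sums. Without WTex1 they were 741 and 1191 in RPF and 1010 and 1402 in RNA, and without WTex2 1159 and 1427, and 1140 and 1543. The RPF log2 fold changes over WT were 1.44 ± 0.21 for Tdgf1, 1.42 ± 0.20 for Nanog, 1.30 ± 0.18 for Fgf4 and 0.99 ± 0.18 for Sox2 (SE, limma adjusted p from 6.5e-04 to 0.0031). The RNA changes were 1.52 ± 0.24 for Tdgf1, 1.45 ± 0.15 for Fgf4, 1.27 ± 0.15 for Nanog, 1.25 ± 0.12 for Sox2 and 0.89 ± 0.19 for Trim71 (SE, limma adjusted p from 9.3e-05 to 0.0050). The median over the 9 was 0.46 in RPF and 0.89 in RNA, beside 0.03 and 0.02 over all genes.

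By limma Pou5f1 did not pass against WT in either assay, although its Nat1-/- clones lay above WT in both. Its differences were 0.46 ± 0.21 in RPF (log2, SE, adjusted p = 0.117) and 0.43 ± 0.16 in RNA (adjusted p = 0.0661), and without C3 they were 0.61 (adjusted p = 0.0331) and 0.56 (adjusted p = 0.0149). DESeq2 called the RNA difference of Pou5f1, at 0.43 (adjusted p = 0.0371). Sall4 had 0.43 ± 0.18 in RPF and 0.35 ± 0.18 in RNA (log2, SE, adjusted p = 0.0884 and 0.160), and without C3 0.58 and 0.53 (adjusted p = 0.0171 and 0.0136). Lin28a was the one member with a mean below WT in both assays, at -0.61 ± 0.36 in RPF and -0.72 ± 0.28 in RNA (log2, SE, adjusted p = 0.221 and 0.0667). With equal library sums the RNA difference of Lin28a was -0.84 (adjusted p = 0.0343). Without B12 the RPF and RNA differences were -0.96 and -1.01 (adjusted p = 0.0252 and 0.0040). The 2 Lin28a values of WT overlapped the Nat1-/- range only through B12. Utf1 differed by 0.21 ± 0.32 in RPF and -0.05 ± 0.40 in RNA (log2, SE, adjusted p = 0.641 and 0.937). Trim71 footprints differed by 0.23 ± 0.20 (adjusted p = 0.409).

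In Nat1+/- against WT, limma called 1 member in RPF, Sox2, which rose by 0.71 ± 0.18 (log2, SE, adjusted p = 0.0409), so 1 of 9 rose and 0 fell where 5.35% of all genes rose and 5.13% fell. These shares rest on single cultures. In RPF 701 genes rose and 673 fell, against 0 and 0 without WTex1, 15 and 8 without WTex2, 47 and 37 without A7 and 214 and 175 without C1. In total RNA 2 of 9 rose and 0 fell, where 4.6% (636 genes) rose and 5.41% (747 genes) fell. Those RNA counts were 0 and 0 without WTex1, 6 and 10 without WTex2, 91 and 95 without A7 and 283 and 290 without C1. With libraries scaled to equal sums instead, 450 genes rose and 1150 fell, and Sall4 was among those lower (-0.66, adjusted p = 0.0381). The 2 members were Fgf4, by 0.57 ± 0.15 (adjusted p = 0.0379), and Sox2, by 0.47 ± 0.12 (adjusted p = 0.0410). All 3 calls are close to the threshold. Those of Sox2 were lost when any single WT or Nat1+/- culture was left out, and that of Fgf4 without WTex1, WTex2, A7 or C1. Fgf4, Tdgf1 and Nanog footprints lay above WT without overlap, at 0.61 ± 0.18, 0.63 ± 0.21 and 0.52 ± 0.20 (log2, SE, limma adjusted p = 0.0576, 0.0836 and 0.113). DESeq2 called the footprints of Fgf4 (0.60, adjusted p = 0.0229) and Tdgf1 (0.62, adjusted p = 0.0338). Tdgf1 RNA differed by 0.67 ± 0.24 (limma adjusted p = 0.0898), a difference that DESeq2 put at 0.69 and called (adjusted p = 0.0349). Pou5f1 lay below WT without overlap at -0.32 ± 0.21 in RPF and -0.24 ± 0.16 in RNA (adjusted p = 0.318 and 0.344). Sall4 RNA was lower in all 3 Nat1+/- clones than in WT, at -0.57 ± 0.18 (log2, SE, limma adjusted p = 0.0719), and DESeq2 called it lower (-0.56, adjusted p = 0.0334). Over the 9 the median was 0.01 in RPF and -0.24 in RNA, beside -0.01 and -0.02 over all genes.

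In TE, limma called 0 of the 9 in Nat1-/- against WT, with 0.00773% of all genes called, and 0 in Nat1+/- against WT, with 0% of all genes. Of the 9, 1 had an unadjusted p under 0.05 in each comparison. Of all 12933 genes, 328 did in Nat1-/- against WT and 663 in Nat1+/- against WT. DESeq2 and edgeR called 0 of the 9, and over all genes DESeq2 called 34 and 10 and edgeR 1 and 0. Paired by culture, Trim71 was lower in Nat1-/- than in WT, at -0.66 (log2, adjusted p = 0.0100), with 0.99% of all genes lower and 0.232% higher. Sall4 was higher in Nat1+/- than in WT in that fit, at 0.57 (adjusted p = 0.0443), with 0.696% of all genes higher and 0.433% lower.

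**Figure D5:**
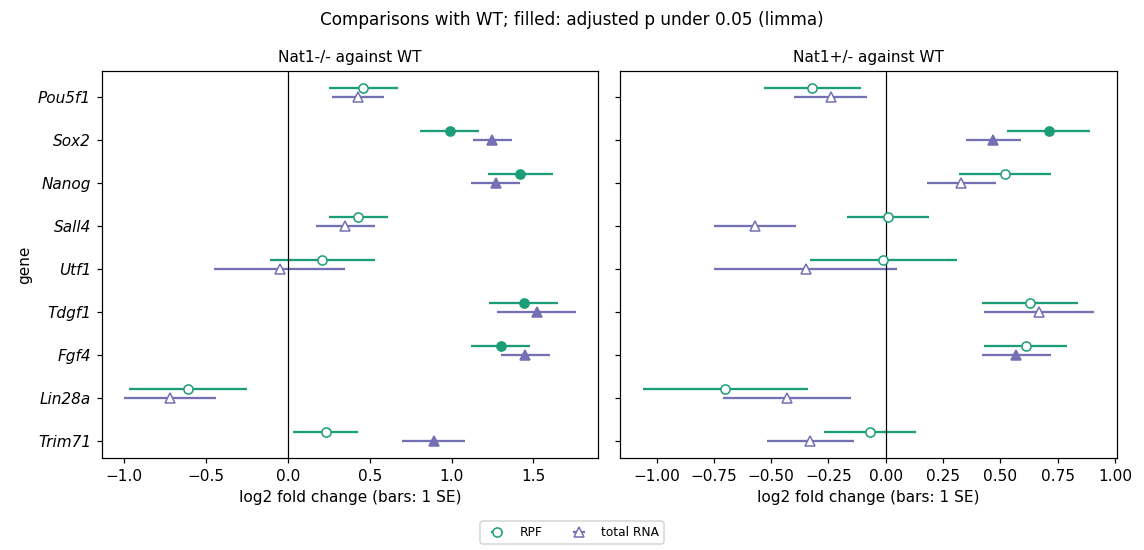
Log2 fold change over WT (horizontal axes) of Nat1-/- on the left and Nat1+/- on the right for each gene (vertical axis), in RPF and total RNA with bars of 1 SE; filled symbols have an adjusted p under 0.05. Tdgf1, Nanog, Fgf4 and Sox2 are filled in both assays on the left, and on the right only Sox2 (both assays) and Fgf4 (RNA) are.

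The lists that follow compare Nat1-/- with Nat1+/-, and their counts stand beside the all-gene shares of 17.6% higher and 18.6% lower in RPF and 19.8% and 20.2% in total RNA. The lists too were chosen with earlier results of these data known, so their counts are a description only. Of 12 factors that work with OCT4, SOX2 and NANOG in the naive state, RPF rose for 6 and fell for 1 and total RNA rose for 8 and fell for 1, above the all-gene share for rises and below it for falls. Their median log2 fold changes were 0.67 in RPF and 0.72 in RNA, beside 0.02 and 0.01 over all genes. The RNA of Klf4 and Tbx3, activators of the naive circuit, rose by 2.51 ± 0.24 and 2.65 ± 0.28 (log2, SE), and that of Klf5, a related activator, by 1.33 ± 0.16. The RPF rises of Klf4, Tbx3 and Klf5 were smaller, at 1.45 ± 0.27, 1.87 ± 0.30 and 1.07 ± 0.20. Tcf7l1, a repressor acting on the same targets, rose by 1.99 ± 0.23 in RNA and by 1.06 ± 0.16 in RPF. Against WT, Tcf7l1 RNA differed by 0.45 ± 0.26 in Nat1-/- and by -1.54 ± 0.26 in Nat1+/-. Klf2 fell from Nat1+/- to Nat1-/- by 0.56 ± 0.14 in RNA and by 1.01 ± 0.14 in RPF. Of 16 proteins that bind OCT4 or NANOG, RPF rose for 2 and fell for 2, and RNA rose for 3 and fell for 1, none of these counts exceeding the all-gene shares. Their medians were -0.05 and 0.12. Among them Wdr5, a subunit of histone H3K4 methyltransferase complexes, rose by 1.16 ± 0.14 in RNA and the histone-binding Rbbp7 fell by 1.12 ± 0.22. Mta2, a subunit of the NuRD deacetylase complex, rose in RNA by 0.60 ± 0.13.

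Other genes listed for general pluripotency rose without a fall, 3 of 11 tested in RPF and 6 of 12 in RNA, where 17.6% and 19.8% of all genes rose. Their medians were 0.29 and 0.52. In RNA the smallest p belonged to Mybl2 (0.99 ± 0.15, log2, SE), a cell cycle transcription factor, and Phc1 (0.57 ± 0.12), a Polycomb subunit. Dppa5a rose by 0.84 ± 0.19 in RPF. Esrrb and Zfp42, which also belong to the naive factors, rose in RNA by 0.50 ± 0.16 and 0.51 ± 0.17.

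Around Tdgf1, RPF rose for 4 of 13 tested NODAL pathway genes and fell for 2, and total RNA rose for 8 and fell for 2. Rises exceeded the all-gene shares (17.6% and 19.8%) and falls did not (18.6% and 20.2%), and the medians were -0.05 and 0.46. Pcsk6, a convertase that cleaves NODAL, rose by 1.55 ± 0.20 in RPF and 1.85 ± 0.19 in RNA (log2, SE). The NODAL inhibitors moved apart, Lefty2 rising by 1.49 ± 0.20 in RPF and Lefty1 falling by 0.98 ± 0.26. Smad3, a signal transducer, fell by 1.40 ± 0.22 in RPF and by 0.59 ± 0.17 in RNA. Smad4, the shared SMAD, rose in RNA by 0.73 ± 0.11 with an RPF difference of -0.15 ± 0.13 and was lower in TE by -0.88 ± 0.16 (adjusted p = 0.0204).

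Around Fgf4, RPF rose for 3 of 15 receptor and signalling genes and fell for 5, and RNA rose for 7 and fell for 4. Against the all-gene shares, RPF rises were near 17.6% and falls above 18.6%, and RNA rises and falls were above 19.8% and 20.2%. The medians were -0.08 and 0.40. Receptor RNAs went in opposite directions. Fgfr2 differed by -4.69 ± 0.32 and Fgfr3 by 3.33 ± 0.24 in RNA (log2, SE), and by -4.57 ± 0.40 and 3.09 ± 0.28 in RPF. Fgfr2 was close to the detection limit in Nat1-/-, with 2.28 to 7.99 normalised footprint reads. Fgfr1, the main receptor of FGF4 in these cells, fell by 1.12 ± 0.14 in RPF and by 0.48 ± 0.14 in RNA. Etv4 and Etv5, transcription factors induced by FGF signalling, rose in RNA by 1.52 ± 0.35 and 0.90 ± 0.13. Against WT, their RNA differences in Nat1-/- were 1.40 ± 0.39 and 0.09 ± 0.14. Etv5 RNA in Nat1+/- differed from WT by -0.81 ± 0.14. Sos1, the RAS exchange factor, fell by 1.30 ± 0.15 in RPF while its RNA rose by 0.40 ± 0.14. Its TE difference was -1.70 ± 0.19 (limma adjusted p = 0.0018).

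In the LIN28A and let-7 pathway, RPF rose for 3 of 18 genes and fell for 6, and RNA rose for 4 and fell for 5. Rises were near the all-gene shares of 17.6% and 19.8% and falls above those of 18.6% and 20.2%, with medians of -0.17 and -0.02. The paralogue Lin28b fell by 2.86 ± 0.29 in RPF and by 2.68 ± 0.40 in RNA (log2, SE), unlike Lin28a, which did not pass in either assay. Hmga2 and Igf2bp3 are both known let-7 targets, and in RPF Hmga2 fell by 2.36 ± 0.32 while Igf2bp3 rose by 0.92 ± 0.13. Dicer1, which cuts microRNA precursors, fell by 0.80 ± 0.12 in RPF with an RNA difference of -0.21 ± 0.12, and Myc rose by 1.97 ± 0.47 in RNA. Myc RNA was 430 and 451 in WT, 86.5 to 124 in Nat1+/- and 155 to 758 in Nat1-/-, so WT lay inside the Nat1-/- range.

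Of 20 relatives of the members from the same families, RPF rose for 4 and fell for 5, and RNA rose for 5 and fell for 5. These counts are near what the all-gene shares of 17.6% and 18.6% in RPF and 19.8% and 20.2% in RNA would give for 20 genes, and the medians were -0.59 and -0.17. Sox4, Sox11 and Sall2 fell, with RNA changes of -3.21 ± 0.23, -3.69 ± 0.27 and -1.87 ± 0.28 (log2, SE), while Sox1 rose by 2.18 ± 0.25.

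Among genes beside the members, Tcf19, next to Pou5f1, rose by 0.83 ± 0.23 in RPF and 0.90 ± 0.20 in RNA (log2, SE), and Lrrc2, next to Tdgf1, by 1.31 ± 0.19 and 1.11 ± 0.21. Dhdds, next to Lin28a, had 0.49 ± 0.19 in RPF and rose by 0.41 ± 0.15 in RNA, and Psors1c2, also near Pou5f1, had 0.05 ± 0.44 and 0.08 ± 0.53.

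Markers of other cell types also differed between the genotypes, and their part in the results was not tested. Summed footprints of 9 endoderm markers (highest Lamb1, Dab2 and Pdgfra) were 4064 to 5565 in WT, 5310 to 8150 in Nat1+/- and 799 to 1320 in Nat1-/-, with 2 of 6 tested markers lower and 1 higher in Nat1-/- against Nat1+/-. For 8 neuroectoderm markers (Tubb3, Nes, Gap43) the sums were 9185 to 10741, 2726 to 4634 and 1187 to 1947, with 5 of 7 lower and 1 higher. For 9 trophoblast markers (Krt18, Krt8, Tfap2c) they were 10477 to 12681, 2599 to 6033 and 1770 to 1911, with 2 of 7 lower. Nat1-/- was lowest and did not overlap in these 3 sums, in total RNA as in RPF. With the highest gene of each list left out, a step added after the sums were seen, this held for neuroectoderm in both assays and for trophoblast in RPF. It did not hold for trophoblast in total RNA (without Tfap2c), nor for endoderm in either assay, where Lamb1 made up 87.9% to 97.45% of the RPF sums. Without Lamb1 the RPF sums were 136 to 309 in Nat1+/- and 95.03 to 139 in Nat1-/-. The 12 fibroblast markers (Fn1, Vim, Tagln) summed to 27273 to 47522 in WT, 56810 to 99065 in Nat1+/- and 22126 to 77847 in Nat1-/-, with 6 of 10 lower and 1 higher. Fn1 alone made up 85.4% to 96.6% of these sums in the Nat1+/- and Nat1-/- clones and 44.4% and 53.5% in WT. Without it the other 11 summed to 15157 and 22099 in WT, 2805 to 4546 in Nat1+/- and 3238 to 3899 in Nat1-/-. WT was highest, and the other genotypes overlapped in these sums. In RPF that overlap holds markers that moved in opposite directions. Vim, the 1 marker called higher in RPF, had values of 2055 to 2672 in Nat1+/- and 3012 to 3627 in Nat1-/-. The 6 called lower in RPF were Acta2, Col1a1, Col1a2, Pdgfrb, Tagln and Thy1. In total RNA 0 of 9 tested fibroblast markers were higher and 5 lower. Vim RNA overlapped, at 1383 to 2013 in Nat1+/- and 1181 to 2229 in Nat1-/-. Within Nat1-/-, Fn1 itself was lowest in B12 and highest in C3, at 18888 and 73948 in RPF and 13767 and 39530 in total RNA. The other 11 markers together ran in the same order with a smaller spread. Their sums in B12 and C3 were 3238 and 3899 in RPF and 1332 and 2376 in total RNA. The 7 mesendoderm markers (Eomes, Kdr, Wnt3) summed to 396 to 506, 155 to 263 and 177 to 211. None of the markers was at 0 in all 8 cultures.

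To find the genes whose pattern over the 8 cultures was most like that of a member, log2 values were centred on each gene's mean and the root-mean-square (RMS) difference was taken. It was computed over 10690 genes in RPF and 11251 in total RNA with a mean of at least 50, and is a description only. Nearest to Nanog were Mtm1 (RMS 0.13), Zfp148 and Dsg2 (both 0.17) in RPF and Grtp1 (0.10), Nudt4 (0.12) and Ephb2 (0.14) in RNA. Nearest to Pou5f1 were Ddx51 (0.05), Hsf1 and Mtg2 (both 0.08) in RPF and Thoc3 (0.03), Fancf (0.04) and Zfp180 (0.05) in RNA. Nearest to Sox2 were Cabin1 (0.04), Zbtb11 and Ubn2 (both 0.07) in RPF and Plcb4 (0.06), Psg16 (0.09) and Neo1 (0.10) in RNA. Among the members themselves, Sox2 was the nearest to Nanog in RNA at 0.15, where it ranked 8th of all genes, and Fgf4 was the nearest to Sox2 at 0.14, ranked 30th. Pou5f1 was nearer to Sall4 (0.20 in RPF and 0.17 in RNA) than to Sox2 or Nanog in both assays.

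For the other members the nearest genes in RPF were Zmym1 to Sall4 (RMS 0.07), Wsb2 to Utf1 (0.14), Slc2a8 to Tdgf1 (0.08), Elovl6 to Fgf4 (0.10), Lamtor1 to Lin28a (0.14) and Pcbp1 to Trim71 (0.05). In total RNA they were Mief1 to Sall4 (0.07), Wsb2 to Utf1 (0.16), AI464131 to Tdgf1 (0.08), Gjb5 to Fgf4 (0.05), Zfp868 to Lin28a (0.13) and Spen to Trim71 (0.06). Utf1 was the one member with the same nearest gene in both assays. Lin28a was far from every other member, its nearest being Utf1 at 0.37 in RPF and 0.42 in RNA.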

How the data were processed

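The authors deposited 1 table of normalised values for 16 libraries (TruSeq Ribo Profile kit, per the labels' protocols). Its unit is a signal, namely deposited read counts that the authors divided by 1 size factor per library. The submitters' processing notes name DESeq2, the counter HTSeq 0.6.1, the aligners TopHat2 2.1.0 and Bowtie2 2.2.8, cutadapt 1.9.1, bcl2fastq 2.17 and the builds GRCm38.p4 and mm10. Whole reads could be recovered for 100% of values (tolerance 0.001). The scaling was done within an assay and makes the typical gene equal between libraries, so it removes any shift common to most genes. Strand and multi-mapping settings are not given in the sources used here. Sox2 lies inside another transcript and Pou5f1, Nanog and Tdgf1 have pseudogene copies, so their reads may be shared. Transcript lengths were not used, so levels of different genes are not compared.

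Each assay was fitted across all genes with limma 3.58.1 (R 4.3.3, trend) on log2(value + 1), with 1 mean per genotype, for genes averaging 10 or more. Fold changes are on that scale. TE was the interaction of assay and genotype over 16 libraries. Calls are two-sided at a Benjamini-Hochberg adjusted p under 0.05 over all genes of a comparison, and "rose" and "fell" are used for calls. The fits were also run on simulated counts in which only RPF changed and each library was drawn on its own. Those counts held no deviation shared by the libraries of a culture, so they cannot judge TE calls where libraries deviate together. RPF and total RNA libraries of a culture come from the same cells by their labels, and their deviations correlated at r = 0.384 to 0.821 across genes (8 pairs), so TE is also given from the fit with a culture term. Alternatives were edgeR 4.0.16 and DESeq2 1.42.0 on recovered reads, other filters, pseudocounts and scalings, blocks and leaving out each culture. The members and gene lists were chosen with earlier results of these data known. Named genes are the 9 members, Eif4g2, up to 4 genes of each list by smallest adjusted p (3 by level for marker lists), listed neighbours and the nearest 1 gene by RMS (3 for Pou5f1, Sox2 and Nanog), predicted genes passed over. Genes of a list were ranked in RPF and in total RNA separately, and Esrrb and Zfp42 are also stem cell markers.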

Additional observations from a re-analysis of the deposited data

How the results depend on the processing

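Of 23 calls of a member in RPF or total RNA, 20 were kept under every alternative run, and over all 23 calls 320 of 344 alternatives kept the call and 0 reversed. The 3 others were the calls of Nat1+/- against WT. There the count of members called was 1 in RPF and 2 in total RNA. It was 0 and 0 with no filter on low values, without a trend or with a replicate block. DESeq2 called 3 and 4, and leaving out 1 Nat1+/- culture gave 0 to 1 in both assays. The all-gene calls also moved, from 701 higher and 673 lower in RPF and 636 and 747 in total RNA. Both directions together, they were 1133 and 997 with no filter, 481 and 549 without a trend and 162 and 190 with a replicate block. With DESeq2 they were 2519 and 2559, and without 1 Nat1+/- culture 84 to 1197 and 186 to 1059. Equal library sums kept the counts of members called and put the median of all genes at -0.114 in total RNA (log2) for that comparison. There Sall4 was lower (-0.66, adjusted p = 0.0381) and the call of Sox2 was lost. In TE the members called in Nat1-/- against Nat1+/- were 0, against 4 in the fit paired by culture through a culture term. DESeq2 called 1, and leaving out 1 culture gave 0 to 1 (1 without C3). Pairing by culture gave 1 for each comparison with WT. Over all genes the TE calls of Nat1-/- against Nat1+/- were 75, 398 with DESeq2, 2037 paired by culture and 6 to 376 with 1 culture left out (6 without B2, 9 without C1, 10 without A7, 23 without B4, 26 without B12 and 376 without C3). The cause of these moves was not tested.

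Replicate numbers were not taken to pair cultures across genotypes. Deviations of same-numbered cultures correlated at r = -0.126 to 0.249 in RPF and -0.192 to 0.329 in total RNA (7 pairs each). Cultures with different numbers were not correlated, so these values cannot show whether the numbers pair cultures. In RPF and total RNA the replicate block changed no call of a member in Nat1-/- against Nat1+/-. In Nat1-/- against WT it added Sall4 in total RNA (0.47, limma adjusted p = 0.0483). An alternative chosen after seeing the data kept only the 5 cultures whose total RNA libraries were shallow. For Nat1-/- against Nat1+/- it called 4 members in RPF and 8 in total RNA, the eighth being Lin28a at -0.58 (limma adjusted p = 0.0380). Over all genes 1689 were higher and 1948 lower in RPF, and 2016 and 2185 in total RNA. These 5 cultures leave out B12 and WT, so the clones compared are those of the fit without B12. Depth and clone cannot be told apart there. WT rests on 2 cultures of 1 line, and intervals on 3 clones a genotype.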
